A study of Homo sapiens with 9 samples.

Results

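The genes described here make, modify or move the lipids of the skin barrier. They are 10 of the 41857 genes in each deposited file, namely SPTLC3, DEGS2, CERS3, ELOVL4, UGCG, ABCA12, ALOX12B, ALOXE3, SULT2B1 and NIPAL4. Their symbols were matched to the Ensembl gene IDs of the files, and every one was found. RNA came from MCF10A, an immortalized human line of breast epithelial cells that is grown with horse serum, EGF, hydrocortisone, cholera toxin and insulin. Poly(A) RNA was sequenced in 9 libraries, 3 with human deltaNp63beta, 3 with human deltaNp63alpha and 3 with the vector alone. The labels call the genotype WT throughout, and every library, vector included, is from cells that had 500 ng/mL doxycycline for 24 h. The promoter that drives the transgenes, and whether a line is 1 clone, are not given in the sources used here. The labels number the replicates but do not say that they were separate cultures, so p-values measure only the spread between these libraries, which may be technical.

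In the upper epidermis, keratinocytes join serine and palmitate to sphingoid bases, couple these to fatty acids of unusual length to form ceramides, and glucosylate them. The lipids are packed into lamellar granules, secreted, and partly attached to the cornified envelope. Loss of many of these genes causes ichthyosis, a scaling skin disease. p63 is the transcription factor on which stratified epithelia depend, and deltaNp63alpha and deltaNp63beta are its N-terminally truncated isoforms with different C-terminal ends. MCF10A is a mammary line, so epidermal differentiation is not its usual state.

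All values are the authors' normalized estimated counts per gene, in which libraries can be compared. The libraries summed to about 22500000 to 23200000. The commonest lowest value put the depth before normalization at roughly 20300000 to 24400000 estimated fragments, so that a value of 1 stands for about 1 fragment. TP63 held 6719, 4183 and 4870 in the deltaNp63beta libraries, 4426, 6983 and 6961 in the deltaNp63alpha libraries and 316, 332 and 259 in the vector libraries. This separates the isoform libraries from vector as labelled, but a gene-level value does not show which isoform a library carries. All 9 markers chosen for the epithelial line were detected, and their sum was 275930 to 291660 with deltaNp63beta, 157690 to 160790 with deltaNp63alpha and 96286 to 101370 with vector. KRT5 was the largest part of the sum in each group, and not all markers followed it. With deltaNp63beta, deltaNp63alpha and vector, KRT8 averaged 5418, 4292 and 5290, and EGFR averaged 10670, 14884 and 10685. Of the 14 markers of fibroblasts, leukocytes and endothelium, PTPRC, CD3E and CDH5 stayed under 10 in every library. The summed fibroblast markers were 504 to 543 with deltaNp63beta, 519 to 634 with deltaNp63alpha and 1449 to 1481 with vector, of which DCN made up most in the vector libraries. COL1A1 did not follow this sum and averaged 340 with deltaNp63beta, 203 with deltaNp63alpha and 236 with vector. The leukocyte markers, mainly CD68 and ITGB2, summed to 726 to 783 with deltaNp63beta, 988 to 1226 with deltaNp63alpha and 1568 to 1734 with vector. The endothelial markers summed to 104 to 127 with deltaNp63beta, 139 to 155 with deltaNp63alpha and 169 to 230 with vector. These sums move with the groups, and their part in the results was not tested. In bulk RNA, fewer cells that express a gene and less RNA per cell cannot be told apart.

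Expression of the barrier lipid genes fell into 3 kinds of pattern. NIPAL4 and ABCA12 were higher with both isoforms than with vector. ALOXE3 was lower with deltaNp63beta, and UGCG differed in direction between the isoforms. ELOVL4 and SPTLC3 were well expressed but passed no test, while ALOX12B was near the limit of detection and CERS3, SULT2B1 and DEGS2 were almost silent. A gene entered the test when at least 3 libraries held a value of at least 10, which 7 of the 10 genes and 15108 genes in all did. Each change is given as a log2 fold change ± SE of log2(value + 1), which understates the change of low genes. It was fitted with limma over all 9 libraries and called at a Benjamini-Hochberg adjusted p under 0.05 over all 15108 genes. Group values are mean ± SD of n = 3 libraries.

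**Figure D1:**
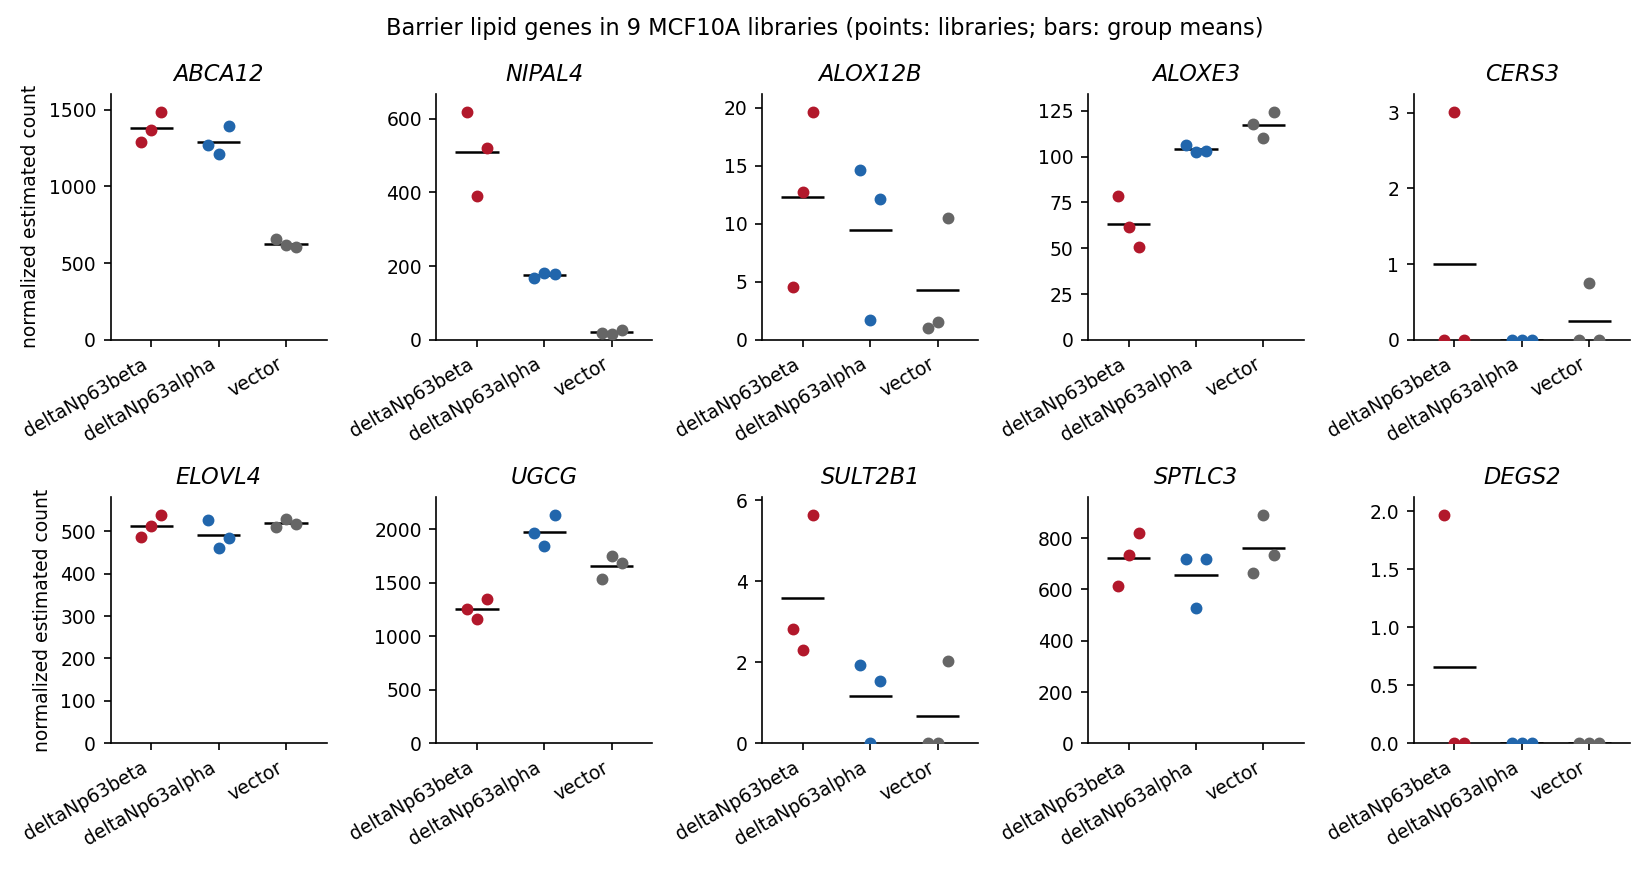
Normalized estimated count of each of the 10 barrier lipid genes in the 9 libraries (points) with the group mean (bar), each panel on its own linear axis from 0. The NIPAL4 and ABCA12 points of both isoforms lie above all vector points, the ALOXE3 and UGCG points of deltaNp63beta lie below all others, and CERS3 and DEGS2 are at 0 in most libraries.

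NIPAL4 encodes ichthyin, a membrane protein related to magnesium transporters that is mutated in congenital ichthyosis. It is on chromosome 5 (ENSG00000172548, GRCh38, 157460019 to 157474717, plus strand). Its value was 619, 391 and 522 in the deltaNp63beta libraries, 168, 183 and 179 in the deltaNp63alpha libraries and 18.2, 15.5 and 27.7 in the vector libraries. No library of any group reached into the range of another group. NIPAL4 averaged 511 ± 114 with deltaNp63beta, 177 ± 7.76 with deltaNp63alpha and 20.5 ± 6.40 with vector. The mean with deltaNp63beta was 24.9 times and that with deltaNp63alpha 8.63 times the vector mean. NIPAL4 rose by 4.59 ± 0.22 with deltaNp63beta (adjusted p = 3.78e-08) and by 3.09 ± 0.22 with deltaNp63alpha (adjusted p = 3.86e-06). It was also higher with deltaNp63beta than with deltaNp63alpha, by 1.5 ± 0.22 (adjusted p = 0.000403). The gene AC008676.3 on the other strand shares 82 of the 4208 exonic bases of NIPAL4.

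ABCA12 encodes the transporter that loads lipid into lamellar granules, and its loss causes harlequin ichthyosis. The gene is on chromosome 2 (ENSG00000144452, 214931542 to 215138428, minus strand). Its value was 1288, 1365 and 1486 in the deltaNp63beta libraries, 1269, 1208 and 1395 in the deltaNp63alpha libraries and 659, 618 and 605 in the vector libraries. Both isoform groups lay clear of the vector libraries, and they overlapped each other. ABCA12 averaged 1379 ± 99.8 with deltaNp63beta, 1291 ± 95.2 with deltaNp63alpha and 627 ± 28.4 with vector. It rose by 1.13 ± 0.08 with deltaNp63beta (adjusted p = 4.99e-07) and by 1.04 ± 0.08 with deltaNp63alpha (adjusted p = 4.21e-06). The difference of deltaNp63beta from deltaNp63alpha was 0.10 with a 95% interval of -0.07 to 0.26 (adjusted p = 0.366).

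ALOXE3 and ALOX12B encode the epidermal lipoxygenases, which act in turn on the linoleate of acylceramides so that the lipid can be bound to the cornified envelope. They are neighbours on chromosome 17, both on the minus strand and 8183 bases apart (ALOX12B, ENSG00000179477, 8072636 to 8087716; ALOXE3, ENSG00000179148, 8095900 to 8119047). ALOXE3 held 78.6, 61.3 and 50.5 in the deltaNp63beta libraries, 106, 102 and 103 in the deltaNp63alpha libraries and 118, 110 and 125 in the vector libraries. The groups did not overlap, with deltaNp63beta lowest and vector highest. ALOXE3 averaged 63.5 ± 14.2 with deltaNp63beta, 104 ± 2.13 with deltaNp63alpha and 117 ± 7.11 with vector. It fell by 0.90 ± 0.18 with deltaNp63beta against vector (adjusted p = 0.00214). Against deltaNp63alpha, it was lower with deltaNp63beta by a log2 change of -0.73 ± 0.18 (adjusted p = 0.0101). Between deltaNp63alpha and vector the change was -0.17 with a 95% interval of -0.57 to 0.23 (adjusted p = 0.602). ALOX12B held 4.60, 12.8 and 19.7 in the deltaNp63beta libraries, 14.6, 1.71 and 12.1 in the deltaNp63alpha libraries and 0.98, 1.51 and 10.5 in the vector libraries. All 3 groups overlapped. Its change was 1.60 ± 0.90 with deltaNp63beta (adjusted p = 0.182) and 1.10 ± 0.90 with deltaNp63alpha (adjusted p = 0.491), so at this depth a difference was not detectable. An antisense gene shares 736 of the 2746 exonic bases of ALOX12B, and whether the counting used strand is not given in the sources used here.

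UGCG encodes glucosylceramide synthase, which puts glucose on ceramide before it is packed into granules. It is on chromosome 9 (ENSG00000148154, 111896766 to 111935369, plus strand). Its value was 1255, 1166 and 1350 in the deltaNp63beta libraries, 1966, 1841 and 2133 in the deltaNp63alpha libraries and 1537, 1754 and 1687 in the vector libraries. The deltaNp63beta libraries were the lowest and the deltaNp63alpha libraries the highest, with no overlap. UGCG averaged 1257 ± 91.6 with deltaNp63beta, 1980 ± 146 with deltaNp63alpha and 1659 ± 111 with vector. It fell by 0.40 ± 0.08 with deltaNp63beta against vector (adjusted p = 0.00145). The change with deltaNp63beta against deltaNp63alpha was -0.66 ± 0.08 (adjusted p = 7.32e-05). With deltaNp63alpha it rose by 0.25 ± 0.08 against vector, close to the threshold (adjusted p = 0.0468). The call was lost when deltaNp63alpha replicate 1 or 3 was left out (adjusted p = 0.0984 and 0.173), likewise vector replicate 1, 2 or 3 (0.152, 0.0541 and 0.092) or deltaNp63beta replicate 1 (0.0552), with equal totals (0.0664) or with no filter on low values (0.0618).

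**Figure D2:**
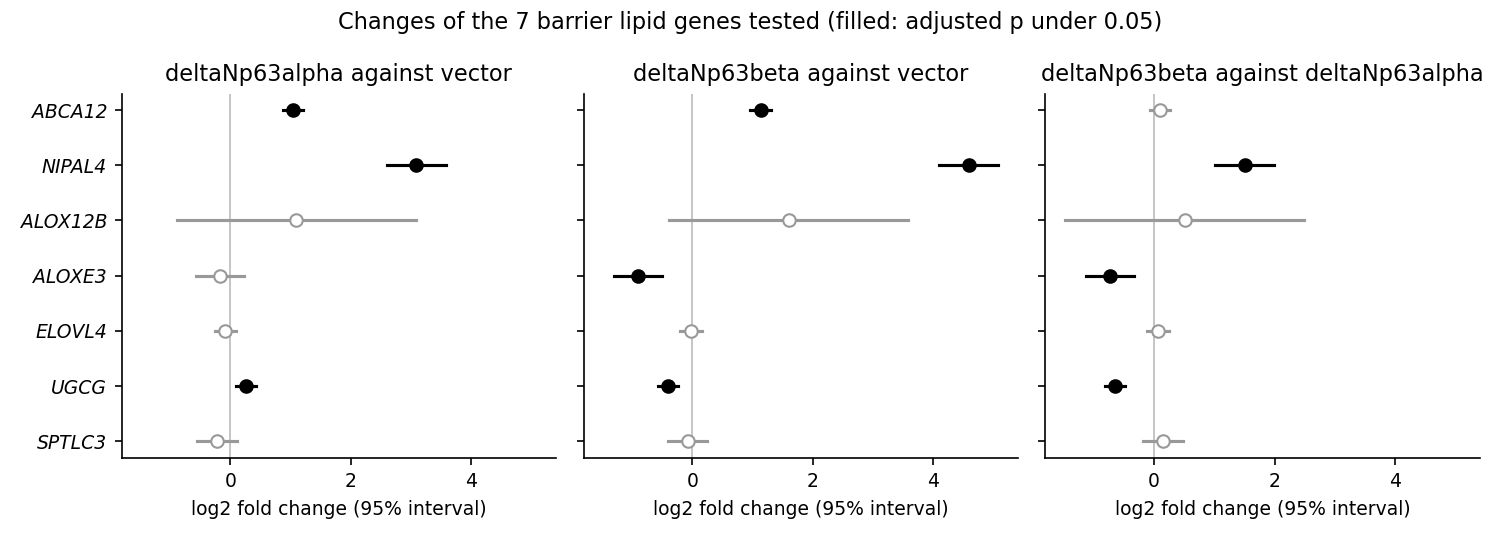
Log2 fold change (points) with 95% interval (lines) of the 7 barrier lipid genes tested, in the 3 comparisons; filled points have an adjusted p under 0.05. NIPAL4 has the largest changes against vector, 4.59 with deltaNp63beta and 3.09 with deltaNp63alpha, and the points of UGCG lie on opposite sides of 0.

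Of the 7 genes tested, 3 were higher and none lower with deltaNp63alpha than with vector, in a comparison that called 14.5% of all genes tested (8.13% higher and 6.37% lower). With deltaNp63beta, 2 were higher and 2 lower than with vector, where 41.3% of all genes tested were called (21.8% higher and 19.5% lower). Between deltaNp63beta and deltaNp63alpha, 1 was higher and 2 were lower, where 32.9% of all genes tested were called (17.4% higher and 15.5% lower). The comparisons with vector share their vector libraries. ALOX12B passed the filter through some libraries only, while the other 6 genes were above 10 in all 9 libraries. The counts are a description.

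To show the start regions of the called genes, the 250 bases before a RefSeq start site are given, on the strand of the gene and from 5′ to 3′ (RefSeq, GRCh38.p14). These start sites differ from the ends of the gene positions given above. The windows of NIPAL4, ALOXE3 and UGCG lie partly inside those positions, and that of ABCA12 lies apart from them. The windows are chr5:157459963-157460212 (plus strand) for NIPAL4, chr2:215138627-215138876 (minus strand) for ABCA12, chr17:8118917-8119166 (minus strand) for ALOXE3 and chr9:111896564-111896813 (plus strand) for UGCG. Capitals mark the decamer of the p53 family consensus, the sequence of which p63 usually binds a pair.
NIPAL4: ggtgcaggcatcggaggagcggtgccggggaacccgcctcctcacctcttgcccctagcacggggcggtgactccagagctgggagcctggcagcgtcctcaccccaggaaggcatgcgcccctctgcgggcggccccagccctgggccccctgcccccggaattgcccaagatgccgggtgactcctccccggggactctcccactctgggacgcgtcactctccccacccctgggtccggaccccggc
ABCA12: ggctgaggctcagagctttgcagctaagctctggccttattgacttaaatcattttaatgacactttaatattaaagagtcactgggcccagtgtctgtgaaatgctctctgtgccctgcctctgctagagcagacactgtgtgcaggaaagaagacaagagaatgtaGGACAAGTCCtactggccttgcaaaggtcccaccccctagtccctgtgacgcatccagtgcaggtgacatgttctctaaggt
ALOXE3: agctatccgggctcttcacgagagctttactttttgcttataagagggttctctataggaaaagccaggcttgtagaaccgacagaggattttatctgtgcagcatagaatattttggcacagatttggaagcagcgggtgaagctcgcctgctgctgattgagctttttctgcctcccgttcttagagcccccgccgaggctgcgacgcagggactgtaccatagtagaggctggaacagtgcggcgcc
UGCG: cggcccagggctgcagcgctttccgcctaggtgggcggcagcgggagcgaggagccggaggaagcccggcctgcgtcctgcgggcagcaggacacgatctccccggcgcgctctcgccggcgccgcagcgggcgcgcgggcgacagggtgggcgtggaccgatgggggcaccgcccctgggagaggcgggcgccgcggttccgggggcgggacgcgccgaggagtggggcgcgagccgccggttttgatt

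The ABCA12 window held this decamer, GGACAAGTCC, beginning 82 bases before the start site. It was the only match in the 15 windows of the 9 genes with an entry, which were all except SPTLC3, and 5.57% of the 35116 windows in the table held a match on either strand. ABCA12 has another start site in the table, CERS3 has 4 and ALOXE3 has 3, and the data do not tell which start was used. The grainyhead-like motif AACCNGTT, searched on both strands, was in none of the 15 windows and in 1.49% of all. The pattern TGANTCA, in which N is any base, includes the AP-1 site TGACTCA and was in 6.57% of all windows. Among the 15 windows it was in another ALOXE3 window only, where it read TGATTCA and not TGACTCA. The windows of NIPAL4 and UGCG were 73.2% and 78.4% G or C, those of ABCA12 and ALOXE3 48.8% and 52.0%. Most p63 binding lies outside such short windows, and binding was not measured here.

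ELOVL4 encodes the elongase of fatty acids with very long chains, and SPTLC3 a subunit of serine palmitoyltransferase, the enzyme of the first step of sphingolipid synthesis. ELOVL4 is on chromosome 6 (79914812 to 79947580, minus strand) and held 485, 513 and 537 in the deltaNp63beta libraries, 527, 461 and 483 in the deltaNp63alpha libraries and 509, 529 and 517 in the vector libraries. The groups overlapped throughout. The change was -0.02 with deltaNp63beta, with a 95% interval of -0.20 to 0.16, and -0.08 with deltaNp63alpha, with an interval of -0.26 to 0.09 (adjusted p = 0.872 and 0.572). SPTLC3 is on chromosome 20 (13008979 to 13169103, plus strand) and held 613, 733 and 820 in the deltaNp63beta libraries, 720, 527 and 717 in the deltaNp63alpha libraries and 663, 889 and 732 in the vector libraries. These groups overlapped as well, and SPTLC3 varied more between replicates than ELOVL4. Its change was -0.08 with deltaNp63beta, with an interval of -0.40 to 0.25, and -0.22 with deltaNp63alpha, with an interval of -0.55 to 0.11 (adjusted p = 0.718 and 0.386).

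CERS3, SULT2B1 and DEGS2 did not pass the filter and were not tested. CERS3, the ceramide synthase for acyl chains of unusual length, was listed at 0, 3.01 and 0 in the deltaNp63beta libraries, at 0 in all deltaNp63alpha libraries and at 0, 0.75 and 0 in the vector libraries. SULT2B1, which sulfates cholesterol, was listed at 2.82, 2.32 and 5.63 with deltaNp63beta, at 1.94, 0 and 1.54 with deltaNp63alpha and at 0, 0 and 2.03 with vector. The 3 deltaNp63beta libraries were the highest for SULT2B1, at a level of a few fragments. DEGS2, which adds the hydroxyl group of phytoceramides, was listed at 1.96 in deltaNp63beta replicate 1 and at 0 in the other 8 libraries. CERS3 lies on chromosome 15 (100400395 to 100544995), SULT2B1 on chromosome 19 (48552075 to 48599425) and DEGS2 on chromosome 14 (100143957 to 100160163).

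Values of different genes were compared per kilobase of the longest coding transcript in GENCODE 29. On that scale the order in vector cells was UGCG (414 ± 27.7), ELOVL4 (170 ± 3.36), SPTLC3 (123 ± 18.8), ABCA12 (68.9 ± 3.12), ALOXE3 (34.9 ± 2.11), NIPAL4 (6.25 ± 1.96) and ALOX12B (1.72 ± 2.12), with SULT2B1, CERS3 and DEGS2 under 1. With deltaNp63beta, NIPAL4 at 156 ± 34.8 stood beside ABCA12 at 152 ± 10.96 and ELOVL4 at 168 ± 8.57, and these did not differ beyond their spread. With deltaNp63alpha, NIPAL4 was at 54.0 ± 2.37 and ABCA12 at 142 ± 10.5, below UGCG at 494 ± 36.6. The order depends on the transcript length: SPTLC3 has short annotated transcripts, and with the median length of its coding transcripts it would come before UGCG in every group. With median lengths, ELOVL4 would come after ABCA12 with deltaNp63beta (168 against 197) and with deltaNp63alpha (161 against 184). With deltaNp63beta, ELOVL4 would also come after NIPAL4, at 209.

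Some enzymes of the same steps that are not specific to skin, chosen after their values were seen, were more abundant per kilobase of the longest coding transcript than the barrier enzymes. This did not hold for every such enzyme: among the elongases, ELOVL7 was at 42.0, ELOVL3 at 9.14 and ELOVL2 at 0.16 per kilobase in vector cells, below ELOVL4. In vector cells, the ceramide synthase gene CERS2, which serves most tissues, was at 2539 ± 63.4 per kilobase and CERS6 at 289 ± 4.33, beside 0.065 for CERS3. DEGS1, the desaturase that completes ceramide, was at 2841 ± 40.6 per kilobase, beside 0 for DEGS2. SPTLC2, another subunit of serine palmitoyltransferase, was at 274 ± 27.0 per kilobase, beside 123 ± 18.8 for SPTLC3. With the median length of the coding transcripts this order turned in every group, with SPTLC3 at 1187 and SPTLC2 at 409 with deltaNp63beta, 1076 and 471 with deltaNp63alpha, and 1252 and 462 with vector. ELOVL1, an elongase of saturated long chains, was at 1433 ± 69.2 per kilobase, beside 170 ± 3.36 for ELOVL4. With deltaNp63beta, CERS2 was at 2626 ± 141, DEGS1 at 2293 ± 30.05, SPTLC2 at 242 ± 4.60 and ELOVL1 at 1641 ± 103 per kilobase.

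**Figure D3:**
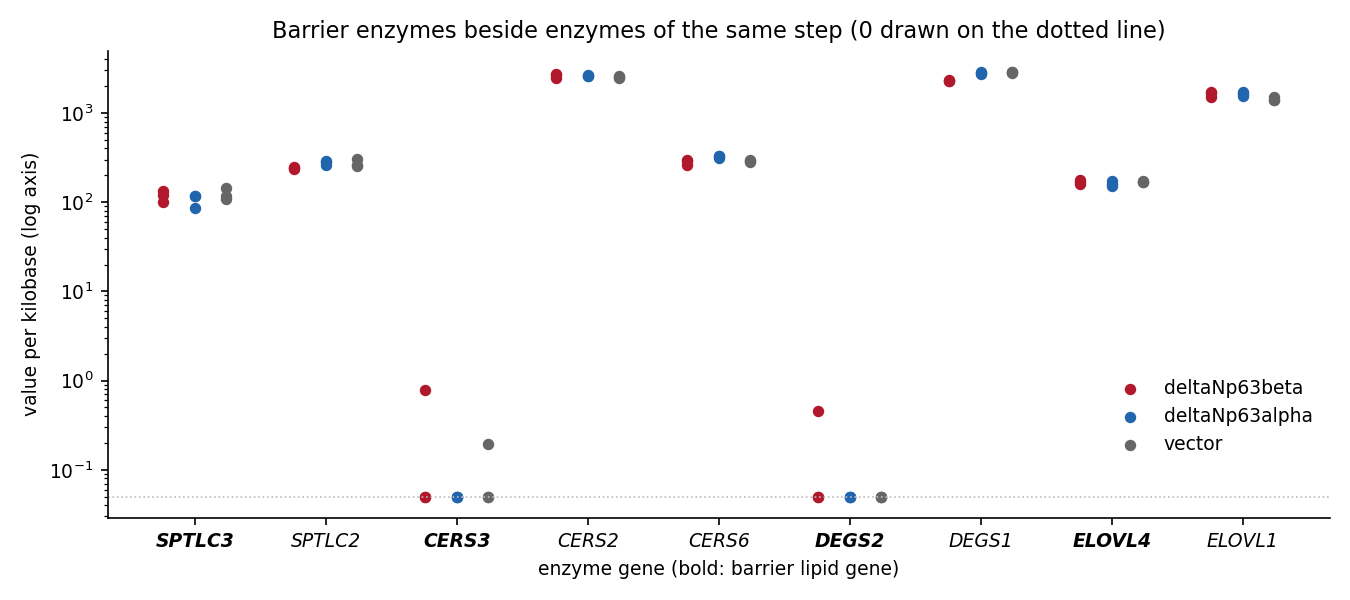
Value per kilobase of the longest coding transcript (log axis) in each library for 4 barrier lipid genes (bold) and enzymes of the same step, with deltaNp63beta, deltaNp63alpha and vector from left to right; values of 0 are drawn on the dotted line. CERS3 and DEGS2 lie under 1 in every library, while CERS2 and DEGS1 lie at 2264 or above.

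Other genes of the pathway were grouped by role. The counts of every list are a description, to be read beside the shares called among all genes tested. Against vector, these shares were 21.8% higher and 19.5% lower with deltaNp63beta, and 8.13% higher and 6.37% lower with deltaNp63alpha. Between deltaNp63beta and deltaNp63alpha they were 17.4% higher and 15.5% lower. In de novo ceramide synthesis, 12 of 14 genes were tested. With deltaNp63beta 1 was higher and 3 were lower than with vector, and the median change of -0.07 compares with -0.0048 over all genes tested. DEGS1 fell by 0.31 ± 0.04 (adjusted p = 3.58e-05) and averaged 4817 ± 63.1 with deltaNp63beta and 5969 ± 85.3 with vector. ORMDL3, which restrains serine palmitoyltransferase, fell by 0.31 ± 0.07, and SPTLC1, the common subunit of that enzyme, fell by 0.18 ± 0.04. SPTSSA, a small activating subunit, rose by 0.21 ± 0.04. With deltaNp63alpha, none of the 12 was called by limma and 3 had an unadjusted p under 0.05. The smallest adjusted p was that of CERS6 (0.17 ± 0.05, adjusted p = 0.0565). No other tool was run. Between deltaNp63beta and deltaNp63alpha, 1 of the 12 was higher and 5 were lower, with a median of -0.16. Without 1 library, 3 to 6 of these genes were called in that comparison. SPTSSB and CERS1 did not pass the filter.

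In fatty acid elongation, 10 of 11 genes were tested. With deltaNp63beta, 5 of them were higher than with vector and none was lower, with a median of 0.11. Of all genes tested, 21.8% were higher and 19.5% lower in that comparison. ELOVL6, which elongates palmitate, rose by 0.31 ± 0.05 (adjusted p = 0.000865) and averaged 4961 ± 115 with deltaNp63beta and 4005 ± 255 with vector. HSD17B12, a reductase of the elongation cycle, rose by 0.39 ± 0.07 and ELOVL7 by 0.42 ± 0.12. TECR, the last reductase of the cycle, rose by 0.17 ± 0.05. The ELOVL7 call was lost without deltaNp63beta replicate 1 or vector replicate 1 or 2 (adjusted p = 0.0571, 0.0513 and 0.0601), and that of TECR without deltaNp63beta replicate 1 or vector replicate 2 or 3 (0.0547, 0.0614 and 0.0528). With deltaNp63alpha, 2 genes were lower and none higher, with a median of -0.04. These were ELOVL5, an elongase of polyunsaturated chains (-0.24 ± 0.04, adjusted p = 0.00387), and the dehydratase gene HACD2 (-0.19 ± 0.04, adjusted p = 0.0102). Between deltaNp63beta and deltaNp63alpha, 5 of the 10 were higher and none lower. Of these, ELOVL5 (0.13 ± 0.04, adjusted p = 0.0438) lost its call with each of the 3 other scalings, with no filter, with only the 2 groups compared, with the replicate block and without any of 7 single libraries (adjusted p between 0.0518 and 0.147). HACD2 lost its call without deltaNp63alpha replicate 2 (adjusted p = 0.059).

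Of 12 genes of acylceramide synthesis and other ichthyosis lipid genes, 8 were tested. With deltaNp63beta 3 were higher and 2 lower than with vector, with a median of 0.25, and with deltaNp63alpha 2 were higher and none lower, with a median of 0.02. The list's largest change was in TGM1, the transglutaminase that builds the cornified envelope and can attach ceramide to it. TGM1 averaged 1394 ± 123 with deltaNp63beta, 197 ± 0.70 with deltaNp63alpha and 81.3 ± 12.1 with vector. ALDH3A2, the fatty aldehyde dehydrogenase deficient in Sjögren-Larsson syndrome, rose by 0.66 ± 0.04 with deltaNp63beta (adjusted p = 5.25e-07), to 4115 ± 93.5 against 2599 ± 73.4 with vector. STS, which removes the sulfate from cholesterol sulfate, fell by 0.56 ± 0.08 with deltaNp63beta (adjusted p = 0.00021), to 305 ± 7.71 against 451 ± 18.7 with vector. CYP4F11, a fatty acid hydroxylase with close relatives among which fragments can be divided, rose by 1.28 ± 0.17 with deltaNp63beta. With deltaNp63alpha CYP4F11 rose by 0.66 ± 0.17 (adjusted p = 0.0252), a call lost when deltaNp63alpha replicate 1 or 2 or vector replicate 1 was left out (0.068, 0.0856 and 0.0606). Of the genes specific to acylceramide in skin, CYP4F22 stayed at or under 1.10 and PNPLA1 at or under 3.32 in all 9 libraries, and the lipase gene LIPN was listed at 0 in all 9.

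**Figure D4:**
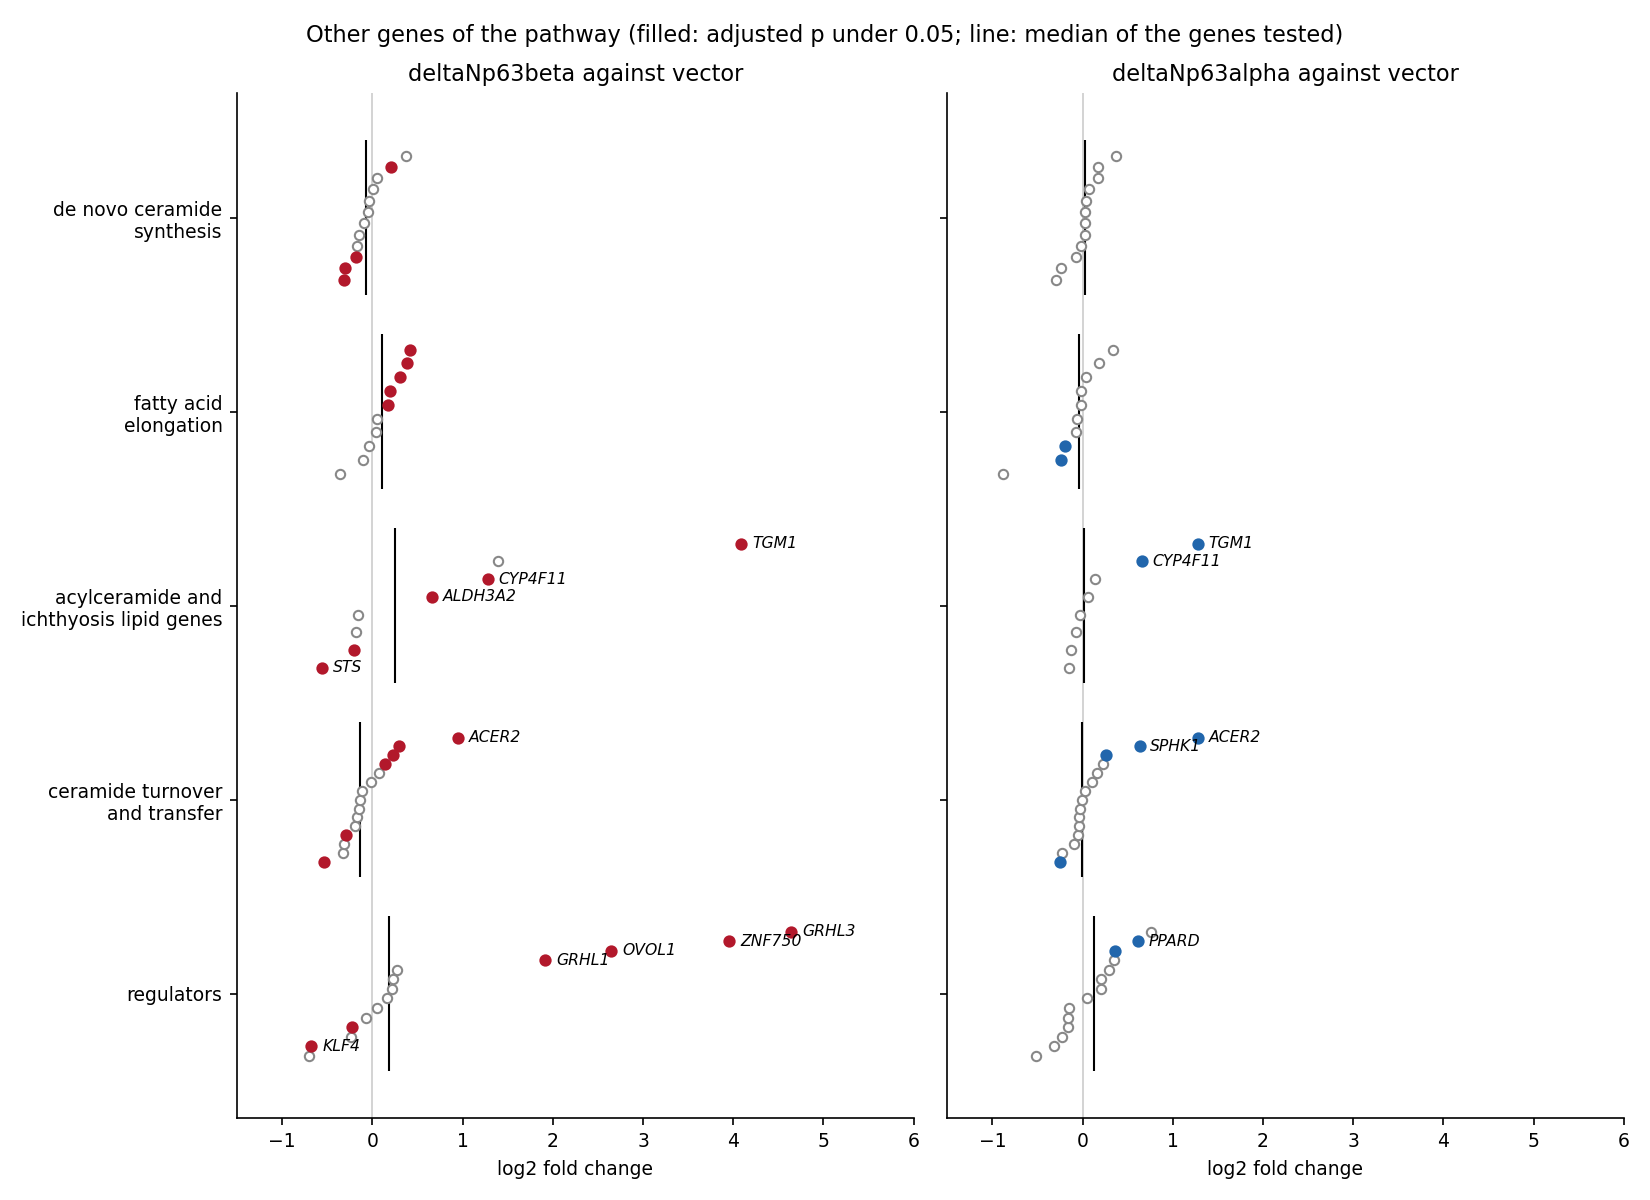
Log2 fold change against vector of the tested genes of 5 pathway lists, with deltaNp63beta on the left and deltaNp63alpha on the right; each point is a gene, filled points have an adjusted p under 0.05, black lines are list medians, and called genes with changes above 0.55 in size are named. The points beyond 2 are TGM1, GRHL3, ZNF750 and OVOL1 with deltaNp63beta.

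Among genes of ceramide turnover and transfer, 15 of 16 were tested. With deltaNp63beta 4 were higher and 2 lower than with vector (median -0.14), and with deltaNp63alpha 3 were higher and 1 was lower (median -0.0056). CERT1, which carries ceramide to the site of sphingomyelin synthesis, fell by 0.54 ± 0.06 with deltaNp63beta (adjusted p = 2.68e-05). It averaged 920 ± 25.8 with deltaNp63beta, 1336 ± 36.4 with deltaNp63alpha and 1342 ± 74.1 with vector. The ceramidase gene ACER2 rose with both, by 0.95 ± 0.25 with deltaNp63beta (adjusted p = 0.0101) and by 1.28 ± 0.25 with deltaNp63alpha (adjusted p = 0.00554). The lysosomal ceramidase gene ASAH1 rose by 0.22 ± 0.05 with deltaNp63beta. SPHK1, which phosphorylates sphingosine, rose with deltaNp63alpha by 0.63 ± 0.10 (adjusted p = 0.00144), and its change with deltaNp63beta was -0.17 ± 0.10 (adjusted p = 0.212). ACER3 rose by 0.29 ± 0.07 with deltaNp63beta and by 0.26 ± 0.07 with deltaNp63alpha. The call with deltaNp63alpha for ACER3 was lost with a replicate block (adjusted p = 0.0552), and the list then had 2 called genes. It was also lost with no filter on low values (0.0534). The ACER3 call was further lost on leaving out deltaNp63alpha replicate 1 or 3 or vector replicate 1 or 2 (between 0.0594 and 0.0917).

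Transcription factors linked to the epidermal barrier were all tested. With deltaNp63beta 4 of 14 were higher and 2 lower than with vector (median 0.19), and with deltaNp63alpha 2 were higher and none lower (median 0.13). GRHL3, a grainyhead-like factor needed for skin barrier formation in mice, averaged 749 ± 117 with deltaNp63beta, 26.1 ± 3.98 with deltaNp63alpha and 29.5 ± 8.46 with vector. ZNF750, a regulator of terminal differentiation, averaged 46.2 ± 21.9 with deltaNp63beta, 1.71 ± 1.73 with deltaNp63alpha and 2.59 ± 3.13 with vector. GRHL1 rose by 1.91 ± 0.27 and KLF4 fell by 0.68 ± 0.14 with deltaNp63beta. PPARD, a nuclear receptor for fatty acids, averaged 799 ± 12.7 with deltaNp63beta, 1443 ± 149 with deltaNp63alpha and 938 ± 48.1 with vector. It rose by 0.62 ± 0.08 with deltaNp63alpha (adjusted p = 0.000284). It fell by 0.23 ± 0.08 with deltaNp63beta (adjusted p = 0.0358), which was not called without any 1 deltaNp63beta or vector library (between 0.0531 and 0.124). The vitamin D receptor gene VDR rose by 0.36 ± 0.07 with deltaNp63alpha. Of 10 markers of terminal keratinocyte differentiation, 6 stayed under 10 in every library, among them KRT1, LORICRIN and TGM3. Of the 4 tested, SPRR1B rose by 5.36 ± 0.44 and IVL by 1.09 ± 0.25 with deltaNp63beta. The change of SPRR1B with deltaNp63alpha was 1.36 ± 0.44 and was not called (adjusted p = 0.061). SPRR1B averaged 103 ± 14.6 with deltaNp63beta, 5.58 ± 1.42 with deltaNp63alpha and 1.62 ± 0.96 with vector. FLG (0.09 ± 0.24, adjusted p = 0.807) and KRT10 (-0.17 ± 0.06, adjusted p = 0.0586) were not called with deltaNp63beta. Neither was called with deltaNp63alpha, FLG at -0.51 ± 0.24 (adjusted p = 0.207) and KRT10 at -0.09 ± 0.06 (adjusted p = 0.414). With deltaNp63alpha, IVL rose by 0.97 ± 0.25 (adjusted p = 0.0256), a call lost when deltaNp63alpha replicate 1 or 2 or vector replicate 1 or 3 was left out (between 0.0514 and 0.0965).

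For each tested barrier gene, the other genes with the most similar profile over the 9 libraries were found by Pearson's r of log2(value + 1), as a description. They were DCUN1D5 (r = 0.9957) and CA12 (r = 0.9954) for NIPAL4, PALLD (r = 0.99) and LIPG (r = 0.99) for ABCA12, DAD1 (r = 0.98) and ATP6V1D (r = 0.98) for ALOXE3, and PDE4DIP (r = 0.99) and SMURF2 (r = 0.97) for UGCG. The 9 points share their 3 groups and were searched among all genes tested with a symbol, so high values arise readily. For ELOVL4, SPTLC3 and ALOX12B, which passed no test, the highest values were 0.97, 0.93 and 0.96.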

How the data were processed

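The deposited signal values are normalized estimated counts per Ensembl gene. Per the submitters' processing notes, kallisto 0.46.2, DESeq2 (version not given) and GRCh38 were used; which step gave the deposited numbers is not stated. Between 60.0% and 63.5% of values up to 20 steps were whole multiples of a library's lowest step (within 0.1), so counts were not recovered and no count test was run. Values were tested as log2(value + 1) with limma 3.58.1 in R 4.3.3 (trend, robust, 1 coefficient per group, all 9 libraries), after a filter of at least 10 in at least 3 libraries. Simulated data with known changes and normally distributed noise served to test the code of the fit. They do not test how well the model suits the real values. Symbols matched 36387 of 41857 IDs, and positions came from GENCODE 29. Members and lists were chosen with earlier results of these data known. All 10 barrier genes are named, then up to 4 called genes a list and comparison by smallest adjusted p, and for likeness the 2 highest r. Others named (CERS6, CERS2, SPTLC2, ELOVL1, ELOVL3, OVOL1, FLG, KRT10, the named cell type markers and genes under the filter) were chosen after their values were seen. Replicate numbers did not pair libraries (residual correlation -0.12 to 0.08). The labels give no batch. Some list genes are counted but not reported here by name. Tables were made in Python 3.11.15. Alternatives were 3 scalings, 2 filters, a pseudocount of 0.1, a block for replicate numbers, a fit of only the groups in question, a stricter test beyond a 1.5-fold change, and leaving out each library; transcript length was added after seeing the data.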

Additional observations from a re-analysis of the deposited data

Results flagged for a closer look

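UGCG and PPARD were each called in opposite directions with the isoforms. For UGCG the change was -0.40 with deltaNp63beta and 0.25 with deltaNp63alpha against vector, and the difference of deltaNp63beta from deltaNp63alpha was -0.66 ± 0.08 (adjusted p = 7.32e-05). For PPARD the change was -0.23 with deltaNp63beta and 0.62 with deltaNp63alpha, and the difference was -0.85 ± 0.08. Each gene's smaller change was close to the threshold and was lost in several fits without 1 library, as given above.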

How the results depend on the processing

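Of 375 refitted changes of the 7 genes, 357 kept direction and side of the threshold, 13 lost the call and 5 changed sign, none of these called as reported. Without 1 library, ALOX12B between the isoforms ranged from -0.30 to 1.04, ELOVL4 with deltaNp63beta from -0.0546 to 0.0189, SPTLC3 with deltaNp63beta from -0.17 to 0.041 and SPTLC3 between the isoforms from -0.0025 to 0.26. Barrier genes called with deltaNp63alpha, with deltaNp63beta and between the isoforms ranged from 2 to 3, 4 to 4 and 3 to 3 without 1 library. Against a 1.5-fold change, 2 barrier genes were called with deltaNp63beta and 1 between the isoforms. In that stricter test, elongation and turnover had 0 called genes in all 3 comparisons, and de novo synthesis 0 with deltaNp63beta and 0 between the isoforms. Acylceramide genes had 1, 2 and 1, regulators 0, 3 and 2 (deltaNp63alpha, deltaNp63beta, between isoforms), and terminal markers 0 and 1 with deltaNp63alpha and deltaNp63beta. With deltaNp63alpha, de novo synthesis had 1 called gene with equal totals, with a filter of 50 and with 2 groups only, where acylceramide genes had 1. Terminal markers had 0 with a filter of 50 or 2 groups only and 2 with a pseudocount of 0.1; with deltaNp63beta they had 1 with a filter of 50, and between the isoforms 2 with no filter. Turnover genes with deltaNp63alpha numbered 2 with no filter and 2 with the replicate block, which changed no call of the 7 genes. Without 1 library the called genes with deltaNp63alpha ranged from 0 to 2 in de novo synthesis, 1 to 2 in acylceramide genes, 2 to 4 in turnover and 0 to 1 in terminal markers. With deltaNp63beta they ranged from 2 to 5 in elongation, 3 to 6 in regulators and 1 to 2 in terminal markers, and between the isoforms from 3 to 6 in de novo synthesis, 3 to 6 in elongation and 0 to 1 in terminal markers. The causes were not tested. Depth limits CERS3, SULT2B1, DEGS2 and ALOX12B, which held few fragments.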
